A study of Mus musculus with 57 samples.

Results

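Dynamins, endophilins and amphiphysins are the proteins that bend and cut membrane when a vesicle is pinched off, and 10 of their genes were followed here: Dnm1, Dnm2, Dnm1l, Sh3gl1, Sh3gl2, Sh3gl3, Sh3glb1, Amph, Bin1 and Synj1. The members were all probesets, the sets of short array probes that report on one transcript, that the array's annotation assigns to 1 of these symbols. This gave 24 of the 22626 probesets on the array, for 9 of the 10 genes, and Synj1, a lipid phosphatase that helps to uncoat the vesicle, had none in the annotation used here. Of the 24, 23 reached a log2 level of 4.5 on at least 1 array in the deposited values and entered the tests. They were 7 for Dnm2, 3 each for Dnm1l, Sh3gl2 and Sh3glb1, 2 each for Dnm1 and Bin1, and 1 each for Sh3gl1, Sh3gl3 and Amph. The remaining probeset, Dnm1l 1428008_at, had region means between 2.86 and 2.98 and was not tested. Another 2 probesets that carry the symbols of both Sh3glb1 and Exoc6 were counted apart, with region means between 4.90 and 5.67.

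During endocytosis a clathrin-coated pit is drawn into the cell, amphiphysins and endophilins bind its curved neck through their BAR domains and recruit dynamin through their SH3 domains, and dynamin, a GTPase, assembles around the neck and severs it. In nerve terminals this cycle returns synaptic vesicle membrane after transmitter release. Dnm1 encodes the neuronal dynamin and Dnm2 the dynamin found in most tissues, whereas Dnm1l encodes the related GTPase that divides mitochondria and peroxisomes.

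All mice were C57BL/6NCrl males, 42 to 49 days old on arrival, that chose between water and 10% (w/v) ethanol for 18 h a day in 16 sessions, given as runs of 4 sessions separated by 4 days of abstinence. Tissue was taken 6 days after the last session from the prefrontal cortex (PFC), from the nucleus accumbens (NAc) and from a block of ventral midbrain (VMB, labelled as ventral tegmental area), and RNA of single animals was hybridized to 1 array per region, 19 arrays in each of the 3 regions and 57 in all. Every mouse had access to ethanol, so these arrays hold no ethanol-naive group, and the intake of each mouse is not in the sample labels, so the relation of the members to intake was not analysed here. The pieces of tissue are mixtures of cells, and in them fewer cells of a type and less RNA per cell cannot be told apart.

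The labelled regions were checked against markers. The mean log2 level of 6 markers of striatal projection neurons was 9.85 to 10.35 on the NAc arrays and 6.78 to 7.54 elsewhere, that of 4 cortical excitatory neuron markers was 9.0 to 9.45 in PFC and at most 7.25 elsewhere, and that of 6 dopamine neuron markers was 7.82 to 8.20 in VMB and at most 6.40 elsewhere. PFC replicate 20 is a PFC array by its title and a midbrain array by its other labels, and its means for the cortical (9.12) and the dopamine (5.19) markers lay within the range of the PFC arrays. All 14 member differences called below stayed called without it. The deposited values of the 3 regions were not on 1 scale, with array medians of 6.26 to 6.32 in NAc, 5.66 to 5.70 in PFC and 5.79 to 5.86 in VMB. All arrays were therefore brought to 1 distribution by quantile normalization, called the common scale below, and a difference was called when limma, testing against a minimum difference of 0.5 on the log2 scale, gave an adjusted p under 0.01 over 19815 probesets. Every call below is relative to the bulk of all probesets on the array.

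The sequences upstream of 4 members are shown because these members carry some of the results that follow: Dnm1 and Sh3gl2 were both lower in NAc than in PFC, and Dnm2 and Sh3gl1 went together from array to array in VMB. Bin1, which also had called differences, had no window in the reference table of promoters. Each window is the 250 bases before a transcription start, from RefSeq on GRCm38.p6, read 5′ to 3′ on the gene's strand: Dnm1 at chr2:32353330-32353579 (minus strand), Sh3gl2 at chr4:85205206-85205455 (plus), Dnm2 at chr9:21424658-21424907 (plus) and Sh3gl1 at chr17:56036660-56036909 (minus, the first of 2 starts in the table). The start used for Dnm1 is not the outermost of the gene, which reaches to position 32353349, so its window overlaps the annotated gene. Capitals mark matches, on either strand, to a GC box (GGGCGG), a cAMP response element (TGACGTCA, which reads the same on both strands) or a CCAAT box (CCAAT).
Dnm1: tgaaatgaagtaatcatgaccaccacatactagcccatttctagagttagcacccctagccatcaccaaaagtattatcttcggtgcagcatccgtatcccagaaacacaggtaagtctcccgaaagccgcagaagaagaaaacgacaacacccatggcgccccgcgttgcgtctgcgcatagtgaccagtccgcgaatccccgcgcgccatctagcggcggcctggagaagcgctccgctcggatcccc
Sh3gl2: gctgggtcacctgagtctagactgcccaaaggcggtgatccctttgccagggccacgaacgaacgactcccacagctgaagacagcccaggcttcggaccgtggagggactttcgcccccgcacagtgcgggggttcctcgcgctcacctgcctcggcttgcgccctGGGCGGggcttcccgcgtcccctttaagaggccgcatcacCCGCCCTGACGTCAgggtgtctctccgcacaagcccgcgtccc
Dnm2: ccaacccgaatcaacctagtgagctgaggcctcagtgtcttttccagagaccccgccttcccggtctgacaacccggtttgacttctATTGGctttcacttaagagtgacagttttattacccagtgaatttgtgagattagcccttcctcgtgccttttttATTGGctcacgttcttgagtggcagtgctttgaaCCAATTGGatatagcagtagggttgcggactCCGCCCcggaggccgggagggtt
Sh3gl1: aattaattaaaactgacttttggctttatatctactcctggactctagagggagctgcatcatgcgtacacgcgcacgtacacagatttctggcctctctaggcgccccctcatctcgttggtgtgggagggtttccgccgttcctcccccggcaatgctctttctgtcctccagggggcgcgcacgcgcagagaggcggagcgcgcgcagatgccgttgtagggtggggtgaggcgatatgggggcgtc
The Sh3gl2 window held 2 GC boxes and 1 cAMP response element, and the Dnm2 window held 1 GC box and 4 CCAAT boxes, 2 of which overlap on opposite strands. The windows of Dnm1 and Sh3gl1 held none of these letters. Of 32536 distinct windows of this length in the reference table, 33.0% held a GC box, 1.56% the cAMP response element and 33.8% a CCAAT box. The windows of Dnm1, Sh3gl2 and Sh3gl1 held 20, 22 and 20 CG pairs and that of Dnm2 held 10, against a median of 6. The array does not measure binding at these letters.

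Of 14 called differences of member probesets, Dnm1 had 5, Sh3gl2 and Bin1 had 3 each, Dnm2 had 2 and Sh3glb1 had 1, and those of Sh3gl2 all lay between NAc and PFC. Between NAc and PFC, 8 of the 23 member probesets were called, 1 higher and 7 lower in NAc, where 15.1% of all probesets were called, 7.26% higher and 7.86% lower. The 7 lower ones belonged to Dnm1 (2 of 2), Sh3gl2 (3 of 3), Sh3glb1 (1 of 3) and Bin1 (1 of 2), and the higher one to Dnm2 (1 of 7). Between VMB and PFC, 4 were called, 2 higher and 2 lower in VMB, where 19.1% of all probesets were called, 9.37% higher and 9.71% lower. Between NAc and VMB, 2 were called, both lower in NAc, where 19.6% of all probesets were called, 9.39% higher and 10.2% lower. The last 2 shares of members called, 4 and 2 of 23, were near or under those of all probesets. The 8 called in the first comparison count some genes more than once. With 1 main probeset per gene, 3, 1 and 1 of 9 genes were called in the 3 comparisons, beside 14.2%, 19.7% and 19.8% of all genes. The 19 arrays of one region did not overlap the 19 of the other for 8, 7 and 4 member probesets in the 3 comparisons, beside 21.9%, 23.9% and 23.1% of all probesets. The median difference of the members was -0.06, 0.19 and -0.31 (log2), and that of all tested probesets 0.03, 0.02 and 0.02. No called difference of a member changed direction under any alternative processing that was run.

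**Figure D1:**
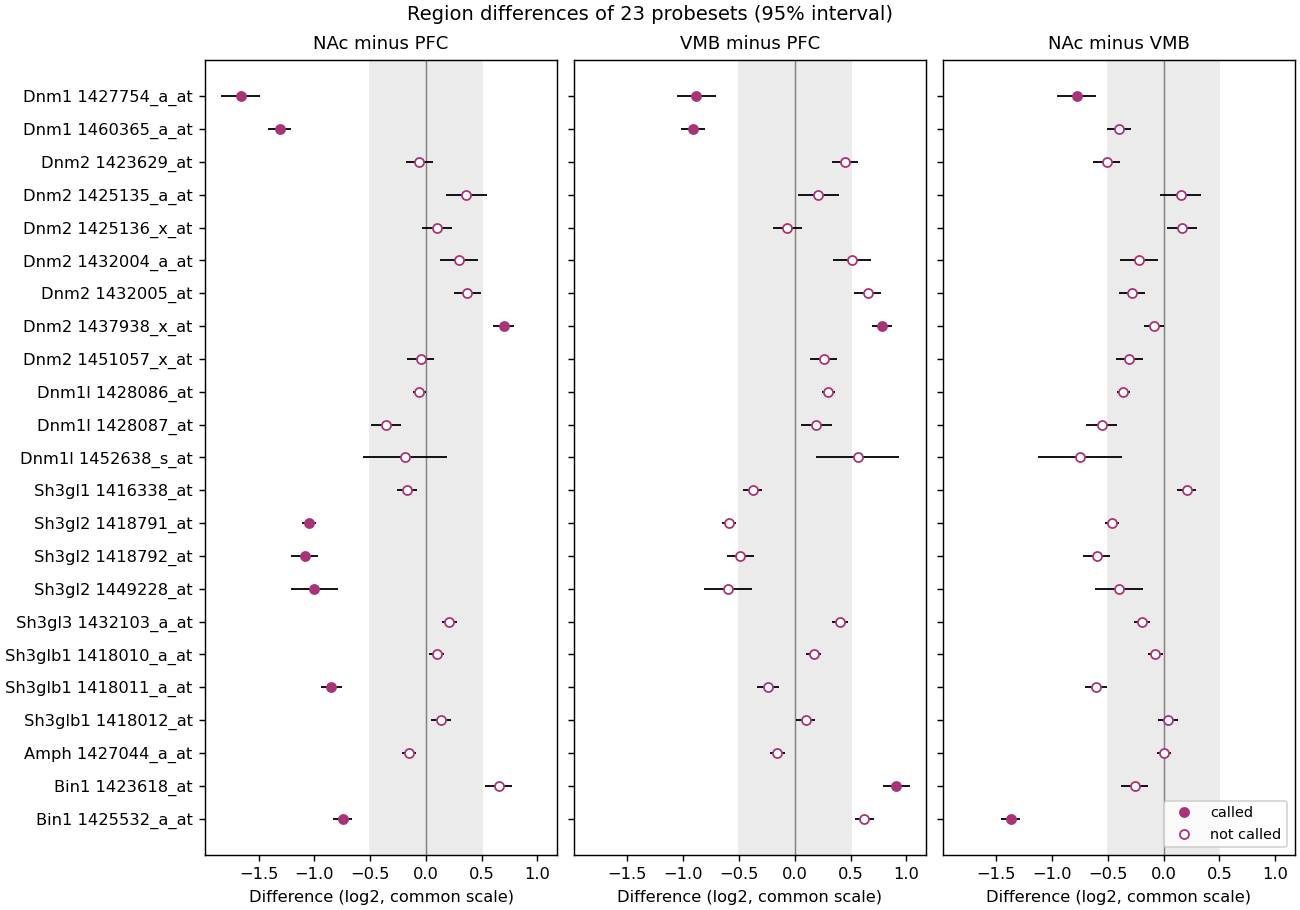
Differences in log2 level (common scale, x axis) of the 23 member probesets (y axis) for NAc minus PFC, VMB minus PFC and NAc minus VMB, with 95% intervals as bars; filled points were called and the grey band marks the minimum difference of 0.5. The Dnm1 and Sh3gl2 probesets lie to the left of the band for NAc minus PFC, between -1.66 and -1.0, and the 2 Bin1 probesets lie on opposite sides of 0.

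Dnm1, the dynamin of synaptic vesicle recycling, was highest in PFC. Its main probeset, the one with the highest mean level of the gene's probesets (1460365_a_at), read 12.19, 12.36 and 12.55 (lowest, median and highest of 19 arrays, log2 on the common scale) in PFC, whereas NAc read 10.70, 11.05 and 11.33 and VMB 11.13, 11.44 and 11.95. Every PFC array was above every array of the other regions, and the NAc and VMB arrays overlapped. The difference NAc minus PFC was -1.31 ± 0.05 (SE), or 2.48-fold lower (limma, adjusted p = 5.73e-21), and VMB minus PFC was -0.91 ± 0.05, or 1.88-fold lower (adjusted p = 4.35e-10). The second probeset, 1427754_a_at, gave -1.66 ± 0.09 (adjusted p = 3.42e-18) and -0.88 ± 0.09 (adjusted p = 0.000157) for the same comparisons, and its VMB arrays overlapped those of PFC. The mean of 7 neuron markers on the common scale was 10.43 to 10.62 in PFC, 9.69 to 10.09 in NAc and 10.04 to 10.50 in VMB. Their median difference was -0.53 for NAc minus PFC and -0.46 for VMB minus PFC (0.18 and -0.36 on the deposited values). Single markers did not all go this way. Between NAc and PFC 1 was called lower in NAc and 6 were not called. Between VMB and PFC 2 were called higher in VMB, 2 lower and 3 not called. Their part in the Dnm1 and Sh3gl2 results was not tested. Probeset 1427754_a_at was also called between NAc and VMB (difference -0.78 ± 0.09, adjusted p = 0.00551), and the main one was not (-0.40 ± 0.05, 95% interval -0.50 to -0.29).

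The NAc to VMB call of 1427754_a_at was lost on the deposited values (-0.14), on median-centred values (-0.61, adjusted p = 0.423) and without a pair of VMB arrays. Replicates 4 and 5 of VMB read 10.29 and 10.22 for it, and the other VMB arrays 8.98 to 9.67. The main probeset was also highest on these arrays, at 11.95 and 11.73 against at most 11.60. Their mean levels of 7 neuron markers (10.50 and 10.43, others 10.04 to 10.32) and of 8 astrocyte markers (9.73 and 9.66, others 9.43 to 9.63) were the highest of the region. Dopamine neuron markers were low on them (7.82 and 7.87, others 7.84 to 8.20). Endothelial markers were lowest on replicate 4 (6.05) but not on replicate 5 (6.36, others 6.15 to 6.48). The part of these markers in the result was not tested. Without both arrays the NAc to VMB difference was -0.67 (adjusted p = 0.0343) and was not called, while both Dnm1 calls between VMB and PFC stayed.

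**Figure D2:**
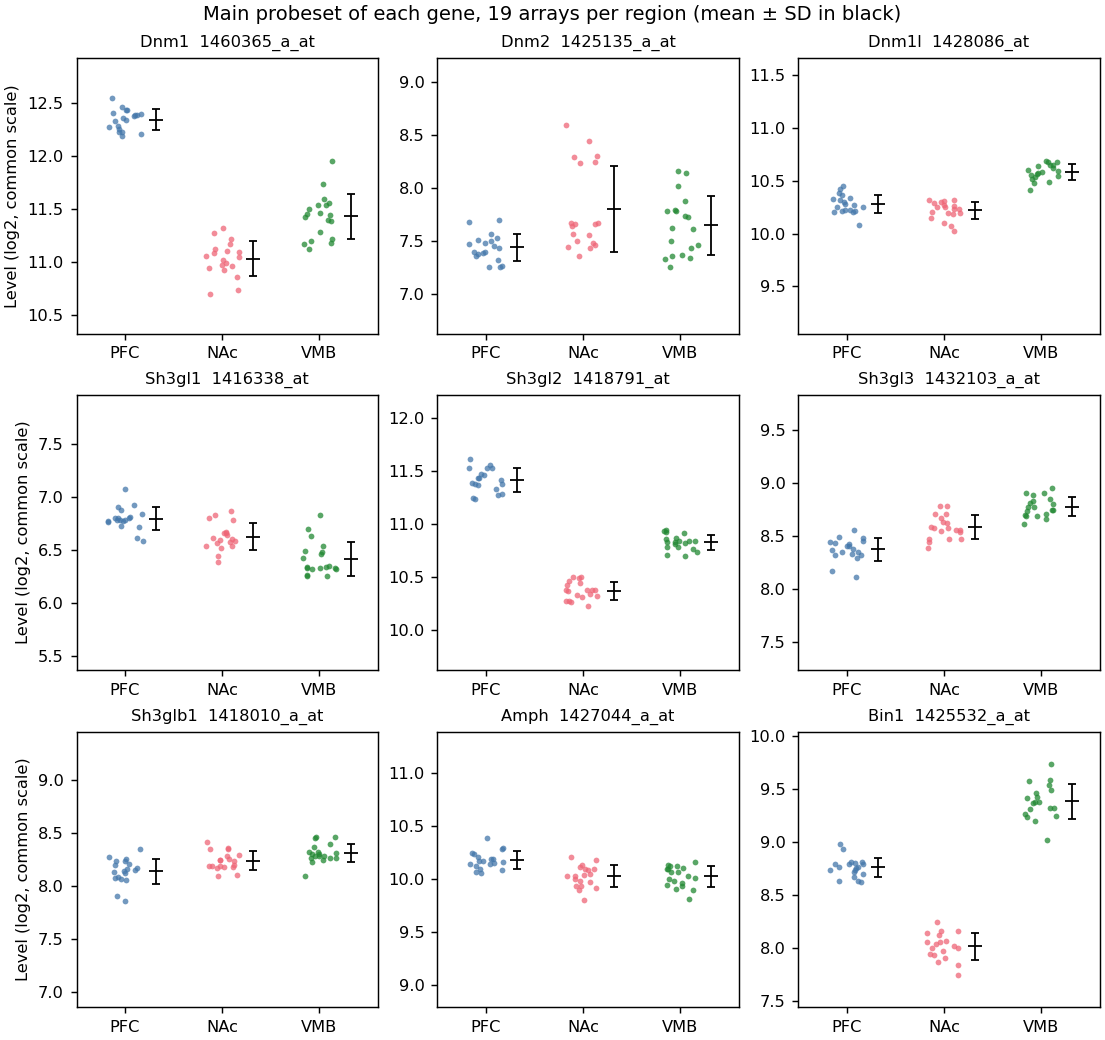
Log2 levels (common scale, y axis) of the main probeset of each of the 9 genes on the 19 arrays of PFC, NAc and VMB (x axis), 1 point per array, with mean ± SD in black; every panel spans the same log2 range. Dnm1 and Sh3gl2 are highest in PFC and Bin1 in VMB, Amph differs by at most 0.16 between region means, and Dnm2 falls into separate sets of arrays in NAc.

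Sh3gl2 encodes endophilin A1, the main endophilin of nerve terminals. Its main probeset 1418791_at read 11.23, 11.42 and 11.62 in PFC, 10.70, 10.83 and 10.94 in VMB and 10.22, 10.37 and 10.50 in NAc. No region overlapped another, in the order PFC, VMB, NAc, although NAc and VMB changed places on the deposited values (NAc minus VMB 0.19). The NAc minus PFC differences of the 3 Sh3gl2 probesets were -1.04 ± 0.03, -1.09 ± 0.06 and -1.0 ± 0.11, or 2.06-, 2.12- and 2.0-fold lower (adjusted p = 2.19e-23, 1.1e-12 and 7.73e-05). Between VMB and PFC they gave -0.59, -0.49 and -0.60 and were not called (lowest adjusted p = 0.0206). These 3 probesets gave like values in all 3 comparisons, and none of their pairs differed in a call.

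Sh3gl3 and Sh3gl1 encode endophilin A3 and the widely expressed endophilin A2. Sh3gl3 read 8.11, 8.38 and 8.56 in PFC, 8.39, 8.57 and 8.79 in NAc and 8.62, 8.77 and 8.96 in VMB. Its VMB arrays all lay above its PFC arrays, by 0.41 on average (95% interval 0.33 to 0.48), which is under the minimum difference. Sh3gl1 had its highest median in PFC, although NAc minus PFC was -0.17 on the common scale and 0.45 on the deposited values. It stood at 6.58, 6.79 and 7.07 in PFC, 6.39, 6.60 and 6.87 in NAc and 6.25, 6.34 and 6.83 in VMB. Its difference between VMB and PFC was -0.38 (95% interval -0.46 to -0.29), and no Sh3gl1 or Sh3gl3 difference was called.

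Sh3glb1 encodes endophilin B1, which acts on mitochondrial and autophagic membranes. Probeset 1418011_a_at read 7.15, 7.46 and 7.69 in PFC, 6.83, 7.22 and 7.38 in VMB and 6.24, 6.59 and 6.85 in NAc. The NAc arrays all lay under the PFC arrays, with a difference of -0.85 ± 0.05 (1.80-fold lower, adjusted p = 8.08e-09). The other probesets of the gene, 1418010_a_at and 1418012_at, differed between NAc and PFC by only 0.10 and 0.13, with NAc higher. The gap between the probesets of this gene was itself called for NAc against PFC, at 0.95 ± 0.05 for 1418010_a_at minus 1418011_a_at (adjusted p = 2.35e-10) and -0.98 ± 0.05 for 1418011_a_at minus 1418012_at (adjusted p = 1.08e-13).

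Amphiphysins are encoded by Amph, the form of nerve terminals, and Bin1, whose splice forms are found in neurons, glia and muscle. Amph was nearly level, at 10.06, 10.17 and 10.39 in PFC, 9.82, 10.04 and 10.16 in VMB and 9.81, 10.04 and 10.21 in NAc. All 3 sets of arrays overlapped. The differences were -0.15 (95% interval -0.22 to -0.09) for NAc minus PFC, -0.16 (-0.22 to -0.09) for VMB minus PFC and 0.00 (-0.06 to 0.07) for NAc minus VMB, all inside the minimum difference, while on the deposited values NAc minus PFC was 0.53 and NAc minus VMB 0.67, where the medians of all probesets were 0.72 and 0.55.

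Bin1 was the member whose probesets disagreed most. Its main probeset 1425532_a_at read 7.74, 8.01 and 8.24 in NAc, 9.01, 9.37 and 9.73 in VMB and 8.62, 8.76 and 8.98 in PFC, with no overlap between any 2 regions. NAc minus PFC was -0.75 ± 0.04 (1.68-fold lower, adjusted p = 1.8e-06), NAc minus VMB was -1.37 ± 0.04 (2.58-fold lower, adjusted p = 6.7e-27), and VMB minus PFC was 0.62 ± 0.04 (adjusted p = 0.015, not called). Probeset 1423618_at read 4.87, 5.07 and 5.27 in PFC, 5.66, 5.87 and 6.52 in VMB and 5.44, 5.70 and 6.07 in NAc. Here PFC was the lowest region and its arrays overlapped neither of the others. VMB was 0.91 ± 0.06 higher than PFC (1.88-fold, adjusted p = 2.24e-08), and NAc minus PFC was 0.65 ± 0.06 (adjusted p = 0.0402, not called).

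The 2 Bin1 probesets therefore ran in opposite directions between NAc and PFC, and the difference between their differences was 1.40 ± 0.08 (adjusted p = 7.19e-15), without overlap of the arrays. Between NAc and VMB it was 1.11 ± 0.08 (adjusted p = 2.33e-09). An offset common to an array cancels in this comparison, so it does not depend on the scale of the regions in the way a single probeset does. Oligodendrocyte markers moved with the regions: the mean of 8 measured markers of 11 listed was 7.77, 8.17 and 9.14 in PFC, 10.83, 11.08 and 11.16 in VMB, and 10.0, 10.12 and 10.32 in NAc, all 8 were called higher in both NAc and VMB than in PFC, and none averaged under 4.5 in any region. The order of these means, PFC, NAc and VMB, was also the order of the mean level of Bin1 1423618_at on the common scale, though not on the deposited values (NAc minus VMB 0.20), and not that of Bin1 1425532_a_at, and the part of the markers in either result was not tested.

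**Figure D3:**
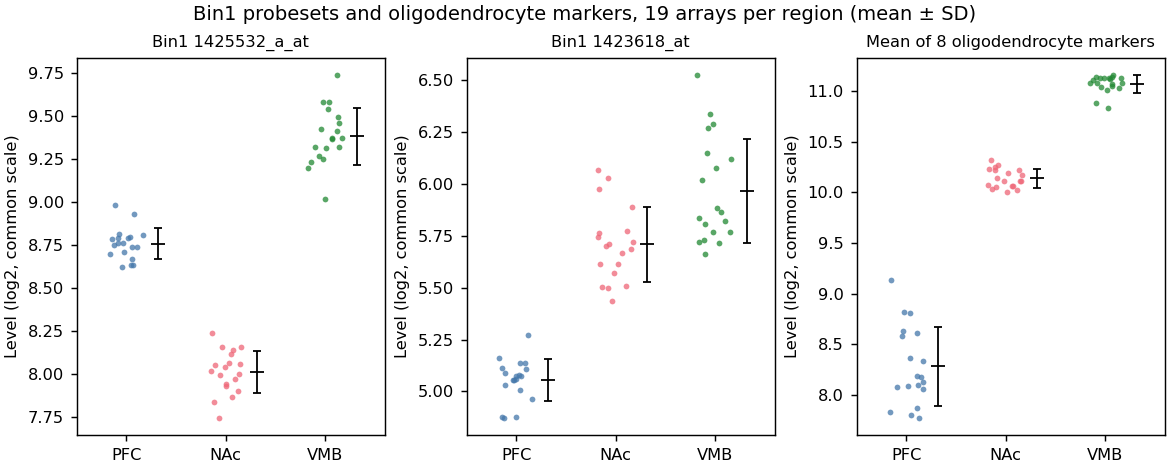
Log2 levels (common scale, y axis) of Bin1 1425532_a_at, Bin1 1423618_at and the mean of 8 oligodendrocyte markers on the 19 arrays of PFC, NAc and VMB (x axis), 1 point per array, with mean ± SD in black. For 1425532_a_at the NAc arrays are lowest (7.74 to 8.24), whereas for 1423618_at the PFC arrays are lowest (4.87 to 5.27).

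Dnm2 had small regional differences on most of its 7 probesets. Probeset 1437938_x_at, whose suffix marks probes that may bind other transcripts too, read 4.95, 5.24 and 5.46 in PFC, 5.72, 6.00 and 6.29 in VMB and 5.65, 5.90 and 6.18 in NAc. PFC lay under both other regions without overlap, by 0.70 ± 0.05 against NAc (1.62-fold, adjusted p = 0.00025) and 0.78 ± 0.05 against VMB (1.72-fold, adjusted p = 1.83e-07). The other 6 probesets were not called in any comparison, with differences from -0.06 to 0.37 for NAc minus PFC and from -0.07 to 0.66 for VMB minus PFC. The main probeset 1425135_a_at gave 0.36 (95% interval 0.18 to 0.55) for NAc minus PFC, a mean over 2 separate sets of NAc arrays described below. Its median was 8.30 on 6 NAc arrays, 7.56 on the other 13 and 7.44 in PFC. Its NAc minus VMB difference was 0.15, and -0.10 without the 6 arrays. Of the 21 pairs of Dnm2 probesets, 2 were called for NAc against PFC, 1 for VMB against PFC and 1 for NAc against VMB.

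Over all members with more than 1 probeset, 9 of 96 comparisons of probesets of one gene (32 pairs in 3 region comparisons) were called by the same limma test. They were 5 for NAc against PFC, 1 for VMB against PFC and 3 for NAc against VMB, where 18.6%, 15.3% and 17.5% of all 10613 pairs of probesets of one gene in the table were called. In a permutation test without a minimum difference, 52 of the 96 had an unadjusted p under 0.01, 20, 20 and 12 of 32 in the 3 comparisons. The t distribution gave the same 3 counts for the members, and 71.9%, 67.9% and 69% of all pairs of probesets passed by it. The Bin1 and Sh3glb1 values are thus cases of a disagreement between probesets that was common on this array.

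Dnm1l had its highest common-scale mean in VMB on each of its 3 tested probesets, without a call, but on the deposited values NAc was above VMB for 1428086_at and 1428087_at. The main probeset 1428086_at read 10.41, 10.58 and 10.69 in VMB, 10.08, 10.27 and 10.44 in PFC and 10.03, 10.23 and 10.32 in NAc. Its VMB and NAc arrays did not overlap, with a difference of -0.36 (95% interval -0.42 to -0.30) for NAc minus VMB on the common scale and 0.30 on the deposited values. Probeset 1452638_s_at, whose suffix marks probes shared by several transcripts, was the most variable member, with an SD of 0.67 in NAc, 0.43 in PFC and 0.67 in VMB, above more than 99 of 100 probesets in each region. Its NAc arrays read 4.93, 6.72 and 7.41.

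The calls between NAc and the other regions depended on the scale. On the deposited values the median of all probesets was 0.72 higher in NAc than in PFC, 0.55 higher in NAc than in VMB and 0.18 higher in VMB than in PFC. There 11285 probesets were called higher and 340 lower in NAc than in PFC (1439 and 1558 on the common scale), 8059 higher and 552 lower in NAc than in VMB (1860 and 2029), and 2783 higher and 1469 lower in VMB than in PFC (1856 and 1924). Of the members, 10 were called higher and 1 lower in NAc than in PFC on the deposited values, 4 higher and 1 lower in NAc than in VMB, and 5 higher and 2 lower in VMB than in PFC. The lower ones were Dnm1 1427754_a_at for NAc against PFC (-0.997, adjusted p = 4.61e-07), Bin1 1425532_a_at for NAc against VMB (-0.74, adjusted p = 1.4e-05) and both Dnm1 probesets for VMB against PFC. For NAc minus PFC, Dnm1 1460365_a_at gave -0.58 (adjusted p = 0.0885), the 3 Sh3gl2 probesets -0.31, -0.42 and -0.34, Sh3glb1 1418011_a_at -0.22 and Bin1 1425532_a_at -0.09 on the deposited values, each not called. When each array's median was subtracted from the deposited values instead, 8, 6 and 1 members were called in the 3 comparisons, and for NAc against PFC they again were 1 higher and 7 lower.

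**Figure D4:**
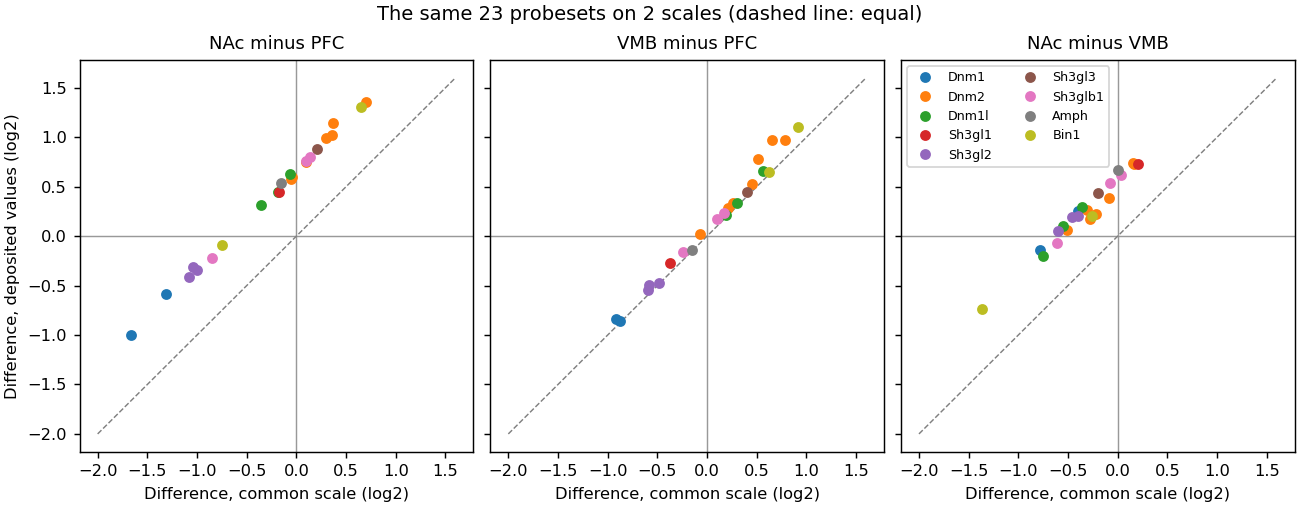
Differences in log2 level of the 23 member probesets on the common scale (x axis) and on the deposited values (y axis) for NAc minus PFC, VMB minus PFC and NAc minus VMB, coloured by gene, with a dashed line where both are equal. The points lie above the line for both NAc comparisons and near it for VMB minus PFC.

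Within a region the arrays differ by mouse. The median SD of the 23 member probesets was 0.18 in NAc, 0.12 in PFC and 0.17 in VMB, beside 0.16, 0.13 and 0.16 for all tested probesets. Dnm2 stood out in NAc, where its main probeset 1425135_a_at fell into 2 sets. On 6 arrays, replicates 1, 4, 6, 9, 18 and 19, it read 8.24, 8.30 and 8.60 (lowest, median and highest), and on the other 13 it read 7.36, 7.56 and 7.67. Probesets 1423629_at, 1425136_x_at and 1451057_x_at split the same arrays without overlap, with medians 0.49, 0.59 and 0.51 apart, whereas 1432004_a_at was lower on the 6 arrays (median 4.75 against 5.14) and 1437938_x_at was alike (5.87 and 5.91).

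These 6 arrays were set apart as those with the highest scores on principal component 1 of this region, so that rank is not a separate result. Component 1, the main axis of variation between the arrays of the region, held 47.0% of the variance of all tested probesets. The size of the correlation with that component was 0.92 to 0.96 for these 4 Dnm2 probesets, beside a median of 0.54 for all probesets, and it was 0.03 and 0.05 for the Dnm1 probesets. The variation of Dnm2 in NAc thus moved with a component that many probesets share, and the part of RNA quality, hybridization or dissection in it was not tested. Without the 6 arrays, 8 members were still called for NAc against PFC, and 3 for NAc against VMB, where Dnm2 1423629_at joined (-0.67, adjusted p = 0.00284).

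Pairs of member genes were compared within each region on their main probesets, 36 pairs in each of 3 regions and 108 in all. A correlation of 0.6 or more in size was reached by 4 pairs in NAc, 1 in PFC and 4 in VMB, where 12.6%, 1.52% and 5.50% of all pairs of genes reached it. Dnm2 and Sh3gl1, the widely expressed dynamin and endophilin, went together most in VMB (Pearson r = 0.84, permutation p = 2e-05, Spearman rho = 0.84, permutation p = 1e-05, the smallest that 100000 permutations can give). The p from the t distribution of r, adjusted over all pairs of genes in the table, was 0.00703. Without the 2 arrays farthest from the Dnm2 median r was 0.82. It was 0.85 without replicates 4 and 5 and 0.71 after component 1 was removed. The PFC arrays gave less, r = 0.55 (permutation p = 0.0142, adjusted p = 0.503), rho = 0.34 (permutation p = 0.160), and 0.42 once the 2 farthest arrays were left out.

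In NAc the separate sets of Dnm2 arrays allow no pooled correlation. Within the 13 lower arrays r of Dnm2 and Sh3gl1 was -0.07 (permutation p = 0.831, rho = -0.13, permutation p = 0.682), and within the 6 higher ones 0.42 (exact permutation p = 0.418, rho = 0.49, exact permutation p = 0.356). Sh3gl1 itself read 6.60, 6.79 and 6.87 on the 6 arrays and 6.39, 6.58 and 6.67 on the other 13. Dnm1 and Sh3gl2 were both highest in PFC, and no relation of their main probesets was found within a region. Their r was 0.04 in NAc, 0.22 in PFC and 0.02 in VMB (permutation p = 0.874, 0.368 and 0.950, adjusted p = 0.940, 0.883 and 0.984, rho = 0.08, 0.19 and 0.01, permutation p = 0.762, 0.437 and 0.985). The main Sh3gl2 probeset also went little with 1418792_at of the same gene (r of 0.25, 0.30 and -0.03). These values therefore describe 1 probeset per gene and do not settle the relation of the genes.

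**Figure D5:**
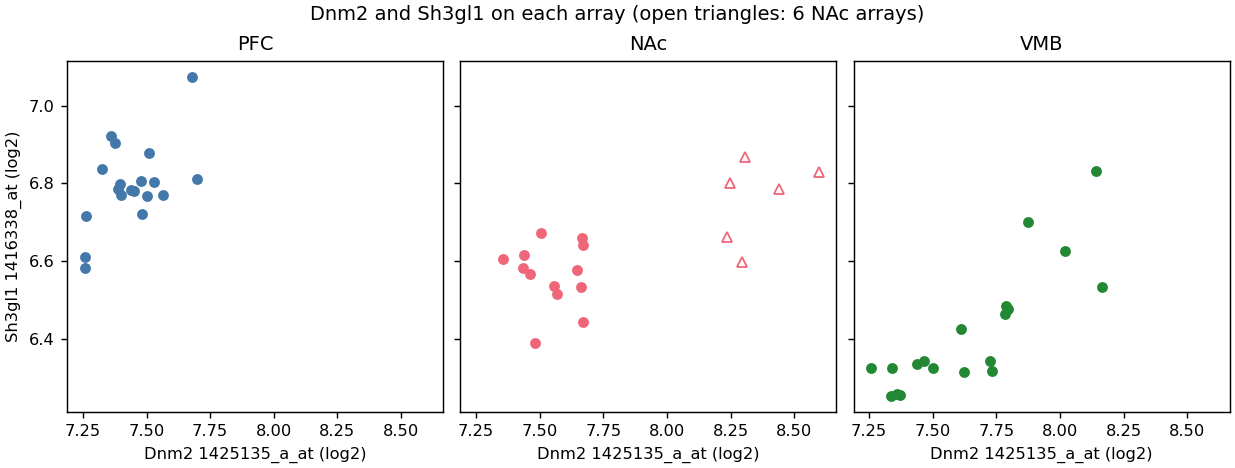
Log2 level of Dnm2 1425135_a_at (x axis) against Sh3gl1 1416338_at (y axis), 1 point per array, in PFC, NAc and VMB; open triangles are the 6 NAc arrays highest on the first principal component. In VMB the points rise together (r = 0.84), and in NAc the 6 triangles stand apart from the other 13 arrays, with r of 0.42 and -0.07 within the sets.

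Of the other pairs, Sh3gl3 and Amph gave r = -0.62 in NAc (permutation p = 0.00481, adjusted p = 0.0425, rho = -0.61, permutation p = 0.00633), and r was -0.63 both without the 2 farthest arrays and after component 1 was removed. Dnm1l and Bin1 gave r = -0.69 in VMB (permutation p = 0.00104, adjusted p = 0.0575, rho = -0.63, permutation p = 0.00453, -0.52 without the 2 farthest arrays). Without VMB replicates 4 and 5 the r of this pair was under 0.6 in size. Sh3glb1 and Amph gave r = -0.66 in PFC (permutation p = 0.00269, adjusted p = 0.351, rho = -0.56, permutation p = 0.0149), and r was -0.37 without the 2 farthest arrays, so the relation rests on them. The probesets of one gene also went together to unlike degrees, given here as a description since such probesets can share a transcript. Dnm1l 1428087_at and 1452638_s_at had r of 0.91, 0.87 and 0.94 in NAc, PFC and VMB. The main Dnm1l probeset 1428086_at, used for the pairs of genes, gave 0.49, 0.03 and -0.27 with 1428087_at and 0.52, 0.21 and -0.25 with 1452638_s_at. The Dnm1 probesets had r of 0.43, 0.70 and 0.90, and the Bin1 probesets -0.40, 0.18 and -0.23.

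Glial markers were set beside each member within a region, for 23 probesets, 2 marker lists and 3 regions, 138 relations in all. No member passed the limma test over all probesets, in which 0.0101% of all probesets passed for astrocyte markers in NAc, 0.222% for oligodendrocyte markers in PFC and 0% in the other 4 cases. An unadjusted permutation p under 0.05 was found for 17 relations, 2, 2 and 1 of 23 with the oligodendrocyte markers in NAc, PFC and VMB and 2, 5 and 5 of 23 with the astrocyte markers. By the t distribution of r these counts were equal except for 4 with astrocyte markers in PFC, and the shares of all probesets were 4.98%, 4.75% and 5.57% for the oligodendrocyte markers and 4.39%, 9.1% and 8.53% for the astrocyte markers. Dnm1 and the astrocyte markers in VMB gave the largest r among them, at 0.73 for the main probeset (permutation p = 0.00052, limma adjusted p = 0.261, rho = 0.51, permutation p = 0.0301, 0.46 without the 2 farthest arrays). VMB replicates 4 and 5 were the highest of the region on both, at 11.95 and 11.73 for Dnm1 and 9.73 and 9.66 for the markers. The value without the 2 farthest arrays still includes replicate 5. Bin1 1425532_a_at and the oligodendrocyte markers in VMB gave r = 0.55 (permutation p = 0.0165, limma adjusted p = 0.906, rho = 0.42, permutation p = 0.0733, 0.30 without the 2 farthest arrays).

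Arrays of different regions that carry the same replicate number were also compared, for 23 probesets and 3 pairs of regions of 18 shared numbers each. Of the 69 relations, 1 had an unadjusted permutation p under 0.05, where 5.07% (NAc and PFC), 5.63% (VMB and PFC) and 6.05% (NAc and VMB) of all probesets did by the t distribution of r. It was Dnm2 1432005_at in NAc and PFC (r = 0.52, permutation p = 0.0314, adjusted p = 0.969, rho = 0.31, permutation p = 0.210), and r was 0.07 without the 2 farthest arrays.

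The partners of these genes were described by 1 main probeset per gene. Of 56 listed endocytic partners 47 were measured, and 1 was higher and 7 lower in NAc than in PFC, 5 higher and 7 lower in VMB than in PFC, and 2 higher and 7 lower in NAc than in VMB. Over all 11342 genes 14.2% were called in the first comparison (7.77% higher and 6.4% lower), 19.7% in the second (10.4% and 9.29%) and 19.8% in the third (9.68% and 10.1%). The median difference of the 47 was -0.17, -0.07 and -0.24.

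Epn1, an epsin that bends the coated pit, was lower in NAc (-1.71 ± 0.06) and in VMB (-1.51 ± 0.06) than in PFC (adjusted p = 4.11e-27 and 1.02e-23). Pip5k1c, which makes the lipid that recruits the coat at synapses, was lower there too (-1.17 ± 0.06 and -1.74 ± 0.06, adjusted p = 2.46e-14 and 1.94e-26). Dnm3, the third classical dynamin, was lower in NAc than in PFC (-1.39 ± 0.08) and than in VMB (-1.29 ± 0.08, adjusted p = 3.74e-15 and 2.12e-13). Ppp3ca, a catalytic subunit of calcineurin, which dephosphorylates dynamin, was lower in VMB than in PFC (-1.42 ± 0.03) and higher in NAc than in VMB (1.13 ± 0.03, adjusted p = 6.08e-34 and 1.67e-25). The partners that were higher in VMB than in PFC included Bmp2k, a kinase of the adaptor-associated family (2.22 ± 0.09, adjusted p = 7.32e-25), Fnbp1, an F-BAR protein (1.46 ± 0.05, adjusted p = 6.8e-25), and Epn3 (1.14 ± 0.07, adjusted p = 5.22e-12). Trip10, another F-BAR protein, was the partner higher in NAc than in PFC (0.73 ± 0.06, adjusted p = 0.00291).

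Of 12 genes of mitochondrial fission and fusion, the field of Dnm1l, 9 were measured. Opa1, which fuses the inner membrane, was lower in NAc than in PFC (-1.24 ± 0.14) and than in VMB (-1.45 ± 0.14, adjusted p = 1.32e-05 and 5.08e-08), and Mfn1, which fuses the outer membrane, exceeded its PFC level in VMB (0.67 ± 0.04) and was lower in NAc than in VMB (-0.68 ± 0.04, adjusted p = 0.000221 and 8.74e-05). The other 7 were not called. Of 15 genes of the ESCRT-III machinery, which cuts membrane from the inside of the neck, 13 were measured. Chmp2a, a subunit of the filament, was 0.68 ± 0.03 higher in NAc than in PFC (adjusted p = 1.49e-06), and Pdcd6ip, which recruits the filament, was lower in NAc than in PFC (-0.68 ± 0.05) and than in VMB (-0.75 ± 0.05, adjusted p = 0.00168 and 1.17e-05). On the deposited values Pip5k1c was not called between NAc and PFC, and Opa1, Mfn1 and Pdcd6ip were not called in their NAc comparisons.

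The genes most like each member were found by the correlation of main probesets over 57 arrays after each region's mean was removed. Eef1a2 (r = 0.81), Syp (0.76) and Grina (0.75) were nearest to Dnm1, and Tcl1b3 (0.95), Hspg2 (0.94) and Asb6 (0.92) to Dnm2. Riok3 (0.77) was nearest to Dnm1l, Sdc4 (0.74) to Sh3gl1, Lims2 (0.73) to Sh3glb1 and Mapk8ip1 (0.72) to Bin1. Sh3gl2, Sh3gl3 and Amph had no neighbour above 0.58, the nearest being Klhdc3 (0.54), Tle4 (0.58) and Atp13a1 (0.51). These values describe shared variation between arrays, principal component 1 of each region included. In PFC alone some were higher, such as Lims2 with Sh3glb1 (0.80) and Klhdc3 with Sh3gl2 (0.72). The values of the Dnm1 and Dnm2 neighbours were lower there, at 0.44, 0.39 and 0.42 for Dnm1 and 0.67, 0.45 and 0.58 for Dnm2. In VMB they were 0.94, 0.79 and 0.89, and 0.97, 0.97 and 0.91. In NAc they were 0.75, 0.86 and 0.67, and 0.97, 0.97 and 0.96, the last 3 over the 2 separate sets of Dnm2 arrays.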

How the data were processed

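Total RNA from single mice was hybridized to Affymetrix mouse expression arrays, 57 in all. The authors deposited RMA (Robust Multichip Average) values on the log2 scale, 1 value per probeset and array. Images were read with GCOS (v4.1 in the methods; the submitters' processing notes list this tool and RMA, no version given). Arrays were grouped by the region in their titles.

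All 57 arrays were quantile normalized together. Probesets whose deposited values stayed under 4.5 on every array were left out of the tests (2811), the filter of the methods. The other 19815 were tested with R 4.3.3 and limma 3.58.1 (lmFit with a mean per region, treat with a minimum difference of 0.5, Benjamini-Hochberg adjustment over all tested probesets, called at adjusted p under 0.01). Each correlation was tested two-sided against 100000 permutations (Python 3.11.15, numpy 2.4.6, scipy 1.17.1), and the first principal component was taken over all tested probesets of a region. The adjusted p of pairs of genes and of same-numbered arrays came from the t distribution of r instead. It was adjusted by Benjamini-Hochberg over all pairs of genes or all tested probesets. All probesets with 1 member symbol are reported. The main probeset of a gene has the highest mean of the deposited values. For a list at most the 3 largest called differences per direction and comparison are named, and for each member the genes with the highest correlation. Of all probesets 20380 carry 1 symbol, and 20351 of these matched a current symbol in the gene table of GRCm38.p6. The scripts were tested on simulated data. The members, lists and tests were chosen with earlier results of these data known. Precision is set by the 19 arrays of each region. Alternatives covered the scale, filter, minimum difference, replicate block, array weights, moderation and single arrays. The labels call the arrays samples of individual animals.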

Additional observations from a re-analysis of the deposited data

How the results depend on the processing

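Of 14 called member differences, 14 stayed called with the replicate block, without PFC replicate 20, with array weights, with trend and robust moderation, without a filter and without the 6 NAc arrays, 13 without VMB replicates 4 and 5 and with median-centred values, 7 on the deposited values and 3 at a minimum difference of 1. With a mean level of at least 6 required, 11 stayed and the other 3 differences, of Dnm2 1437938_x_at and Bin1 1423618_at, were no longer tested. The member probesets called for NAc against PFC (8), VMB against PFC (4) and NAc against VMB (2) became 18, 20 and 16 without a minimum difference and 2, 0 and 1 with a minimum difference of 1. VMB against PFC had 7 members called on the deposited values and 2 with a mean level of at least 6. NAc against VMB had 5 on the deposited values, 1 with median-centred values and 1 without the pair of VMB arrays. Over all probesets the counts 2997, 3780 and 3889 became 14374, 14433 and 14798 without a minimum difference, 717, 1283 and 1144 with a minimum difference of 1, and 1906, 2460 and 2547 with a mean level of at least 6, and on the deposited values NAc against PFC had 11625 and NAc against VMB 8611. The alternatives that leave out the 6 NAc arrays or the pair of VMB arrays, and limma on pairs of probesets, were chosen after seeing the data.

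No called difference changed direction, and 25 differences that were not called did, 22 of them on the deposited values. On the deposited values these were, for NAc minus PFC, Dnm2 1423629_at (0.58) and 1451057_x_at (0.60), Dnm1l 1428086_at (0.63), 1428087_at (0.32) and 1452638_s_at (0.45), Sh3gl1 (0.45) and Amph (0.53). For VMB minus PFC it was Dnm2 1425136_x_at (0.018). For NAc minus VMB they were Dnm1 1460365_a_at (0.26), Dnm2 1423629_at (0.058), 1432004_a_at (0.22), 1432005_at (0.17), 1437938_x_at (0.38) and 1451057_x_at (0.26), Dnm1l 1428086_at (0.30) and 1428087_at (0.10), Sh3gl2 1418791_at (0.19), 1418792_at (0.052) and 1449228_at (0.20), Sh3gl3 (0.43), Sh3glb1 1418010_a_at (0.53) and Bin1 1423618_at (0.20). With median-centred values Dnm1l 1428086_at gave 0.0067 for NAc minus PFC and Sh3glb1 1418010_a_at 0.070 for NAc minus VMB. Dnm2 1425136_x_at gave -0.034 for NAc minus PFC with array weights and -0.087 without the 6 NAc arrays, and for NAc minus VMB without these arrays it gave -0.020 and 1425135_a_at -0.10. The cause of these changes was not tested.

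The 52 probeset pairs of one gene with permutation p under 0.01 became 9 by limma over all such pairs, which changes the test, the adjustment and the minimum difference together. Pairs of member genes of 0.6 or more in size were 4 in NAc, with 2 on the deposited values, 1 after removing principal component 1 and 1 without the 6 arrays, and 4 in VMB, with 1 on the deposited values and 1 without replicates 4 and 5. The 1 relation of same-numbered NAc and PFC arrays became 0 after removing principal component 1, and the 0 for VMB and PFC became 1 on the deposited values. Same-numbered arrays correlated at 0.056 (NAc and PFC), 0.013 (VMB and PFC) and 0.071 (NAc and VMB) on average after removing region means. Arrays of unlike numbers gave -0.0034, -0.0021 and -0.00088. Of 18 shared numbers 3, 5 and 10 were over 0.1, and 2, 1 and 2 arrays correlated best with their own number. The labels do not say whether a number is 1 mouse. These correlations cannot decide it, because 2 regions of 1 mouse need not vary together. With the replicate block (consensus correlation 0.0546), 3052, 3826 and 3928 probesets and 8, 4 and 2 members were called.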
